A study of Sus scrofa with 21 samples.

Results

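Endometrium from the sites where a conceptus was attached was compared with endometrium from the stretches between those sites (the inter-sites) on day 18 after insemination. The arrays were selected by their titles, which gave 3 attachment-site arrays and 3 inter-site arrays, 6 of the 21 arrays of the series. All were from pregnant Large White sows that had been inseminated after heat, and 3 sows were killed on each of days 13, 18 and 24, per the labels. A further 3 arrays held non-pregnant endometrium of day 13. The comparison addresses how endometrium in contact with a conceptus differs in expression from endometrium nearby. Total RNA was labelled with Cy3 and hybridised to 1-colour Agilent porcine arrays. The labels do not say which arrays share a sow, so the sites were compared without pairing, and the p-values measure the spread between arrays. Array numbers follow the replicate numbers of the labels and were not taken to mark pairs. The tissue is bulk endometrium, in which fewer cells of a type and less RNA per cell cannot be told apart.

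In the pig the conceptus does not invade the uterus. It elongates, lies against the luminal epithelium, and attaches to it while the lining remains intact. During this time the pig trophoblast secretes interferon-gamma (IFN-γ) and interferon-delta, an unusual pairing among farm animals. IFN-γ binds its receptor on endometrial cells and acts through the kinases JAK1 and JAK2. The products include chemokines that draw T cells, guanylate-binding proteins, and the proteins that cut, load and display peptides on MHC molecules. Secretions of the uterine glands, together called histotroph, feed the conceptus until the placenta works.

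The 6 arrays had 65.4% to 70.8% of spots well above background, and the 75th percentile of the processed signal ran from 356 to 628. A level is the log2 of a probe's signal over the 75th percentile of its array, and a difference is the attachment-site mean minus the inter-site mean on that scale. Across 30091 tested probes the 6 arrays correlated with each other at 0.941 to 0.984. Attachment-site array 2 stood furthest from the rest, at 0.941 to 0.955. Attachment-site array 1 was closest to inter-site array 2 (0.98), and attachment-site array 3 to inter-site array 3 (0.984), so likeness did not follow site type. None of the 5 slides that held these arrays carried both site types, so differences between slides could not be removed by comparing sites within a slide.

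No probe passed the test at the false discovery threshold. With limma over all 21 arrays and Benjamini-Hochberg adjustment, 0 of 30091 probes had an adjusted p under 0.05 (0%), and the lowest adjusted p was 0.0697. At an unadjusted p under 0.05 there were 1412 probes (4.69%), of which 834 were higher (2.77%) and 578 lower (1.92%) at attachment sites. The values of the 2 site types did not overlap for 1175 probes that were higher (3.9%) and 927 that were lower (3.08%). Among the 2018 genes that could be named, 132 had an unadjusted p under 0.05 with a higher level at attachment sites (6.54%) and 19 with a lower one (0.942%). The groups did not overlap for 169 named genes that were higher (8.37%) and 34 that were lower (1.68%). The median difference was -0.0014 over all probes and 0.0803 over named genes. The shares set beside list counts come from all 21 arrays. At an unadjusted p under 0.05, 855, 652 and 1771 probes were higher and 810, 266 and 2072 lower without attachment-site array 1, 2 or 3. Without inter-site array 1, 2 or 3, 358, 1188 and 665 were higher and 271, 1014 and 584 lower. With slide as a fixed block 517 were higher and 401 lower. The differences described from here on did not pass the adjustment: the adjusted p was 0.944 for SPP1 and CFTR and 0.982 or above for the other genes named, by the probe that stands for each. Each difference is given with its standard error from the fit.

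The gene for IFN-γ itself, IFNG, showed the widest gap of all named genes after the embryonic globin HBE1. Its level was -0.93, 2.26 and -0.49 on the attachment-site arrays and -4.31, -3.31 and -4.21 on the inter-site arrays. All attachment-site values lay above all inter-site values, and attachment-site array 2 was the highest. The difference was 4.22 ± 1.08 (SE, n = 3 and 3), an 18.7-fold higher signal. Leaving out 1 array at a time kept it between 3.23 and 4.83.

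Of 15 measured genes of IFN-γ signalling and its targets, all 15 were above 0 on the difference scale. Their median was 1.49, beside 0.0803 over named genes. At an unadjusted p under 0.05, 10 were higher and 0 lower at attachment sites, and the groups did not overlap for 4 (IFNG, JAK2, CXCL9 and CXCL11). Over named genes the shares were 6.54% higher and 0.942% lower at that level, and 8.37% higher without overlap. The receptor chain IFNGR2 differed by 0.64 ± 0.28, while the other chain, IFNGR1, differed by 0.2 ± 0.27 and the kinases JAK1 and JAK2 by 0.19 ± 0.15 and 0.48 ± 0.32. IRF1, a transcription factor that IFN-γ induces, was at 4.63, 2.3 and 4.09 against 1.24, 2.84 and 2.48, a difference of 1.49 ± 0.54. The receptor and kinase differences were smaller in size than those of IFNG and IRF1, a description that was not tested.

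The chemokines CXCL9, CXCL10 and CXCL11, which share the receptor CXCR3 on T cells, had the largest differences among the targets. CXCL9 stood at 4.98, 2.68 and 2.69 at attachment sites and at -1.81, 1.75 and -0.33 at inter-sites, a difference of 3.58 ± 1.19 without overlap. CXCL11 stood at -0.09, -1.64 and -2.14 against -5.38, -3.63 and -4.08, a difference of 3.08 ± 0.8, again without overlap. CXCL10, the brightest probe of the group, stood at 7.6, 5.1 and 6.68 against 1.69, 5.48 and 4.31. Its difference was 2.63 ± 0.92, but inter-site array 2 exceeded attachment-site array 2, so the groups overlapped. For all 3 chemokines inter-site array 1 was the lowest and attachment-site array 1 the highest. With slide as a fixed block the difference of CXCL9 was 1.87.

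Guanylate-binding proteins, which restrain microbes inside cells, were also lowest on inter-site array 1. GBP1 was at 6.51, 4.72 and 6.01 against 1.8, 5.07 and 3.82, and GBP2 at 4.72, 2.74 and 4.76 against 1.14, 3.51 and 2.61. Their differences were 2.18 ± 0.83 and 1.66 ± 0.61. CD274, the checkpoint ligand PD-L1, was at 0.14, -2.13 and -0.32 against -3.52, -1.25 and -2.43, a difference of 1.63 ± 0.59. In each of these genes attachment-site array 2 lay below inter-site array 2, the reverse of IFNG, where attachment-site array 2 was the highest of all 6. The count of 10 rested on single arrays: it was 3 without attachment-site array 1, 3 without inter-site array 1 and 6 without attachment-site array 3, and 4 with slide as a fixed block. All 15 differences stayed above 0 in each of these settings.

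**Figure D1:**
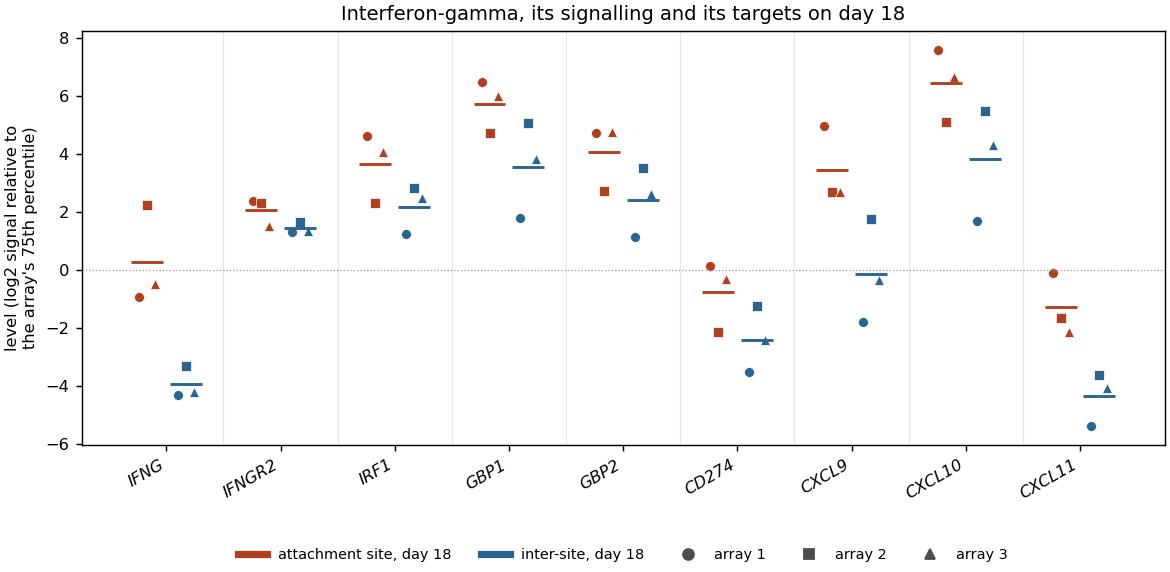
Level of 9 genes of IFN-γ and its pathway on the day 18 arrays, as log2 of signal over the array's 75th percentile; colour gives the site type, marker shape the array number, and horizontal bars the group means of 3 arrays. The groups are apart for IFNG, CXCL9 and CXCL11, while for CXCL10, GBP1, GBP2 and CD274 inter-site array 2 lies above attachment-site array 2.

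MHC class II molecules display peptides to helper T cells. The list of class II and its loading also holds CD40, CD80 and CD86. All 13 measured genes of the list were above 0, with differences from 0.75 (CD74, the invariant chain) to 1.44 (CD80, a costimulator) and a median of 0.94. CD80 was detected at inter-sites on 1 array of 3, so the size of its difference is uncertain. At an unadjusted p under 0.05, 5 were higher and 0 lower: SLA-DRA, SLA-DQA1, SLA-DQB1, IFI30 and CD80. Of named genes 6.54% were higher and 0.942% lower at that level. SLA-DQA1 was at 7.14, 6.16 and 6.59 against 5.0, 5.93 and 5.74, a difference of 1.07 ± 0.36 without overlap. SLA-DRA was at 7.51, 6.3 and 6.64 against 5.29, 6.44 and 5.75, a difference of 0.99 ± 0.41, with inter-site array 2 above attachment-site array 2. IFI30, a reductase that opens disulfide bonds in antigens, differed by 1.3 ± 0.51. SLA genes are close copies of each other, so cross-hybridisation between them was not tested.

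The median level of the class II genes, each centred on its mean over the 6 arrays, was 1.19, -0.08 and 0.25 on the attachment-site arrays and -1.03, -0.07 and -0.41 on the inter-site arrays. Most of the gap therefore lay between attachment-site array 1 and inter-site array 1, and the arrays numbered 2 were level. Without attachment-site array 1 or without inter-site array 1 the count of 5 was 0, and with slide as a fixed block it was 0. Over all 30091 probes 855, 358 and 517 were higher in these settings, beside 834 with all arrays. Without attachment-site array 2 the class II count was 10, with 652 of all probes higher. The 13 differences were above 0 in each of these settings.

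The immunoproteasome is the form of the proteasome that IFN-γ induces, and its activator opens the chamber. All 10 measured members of the list, which also holds UBD and constitutive subunits, were above 0, with a median of 0.7. At an unadjusted p under 0.05, 5 were higher, beside 6.54% of named genes. The inducible catalytic subunits PSMB9 and PSMB10 differed by 1.42 ± 0.48 and 1.22 ± 0.4. PSMB9 was at 6.21, 4.9 and 5.79 against 3.2, 4.95 and 4.47, so the arrays numbered 2 were again level while those numbered 1 were furthest apart. The activator subunits PSME1 and PSME2 differed by 0.61 ± 0.26 and 0.8 ± 0.27, and the shared core subunit PSMA6 by 0.48 ± 0.19. The constitutive catalytic subunits PSMB6 and PSMB7, which the inducible ones replace or accompany, differed by 0.35 ± 0.21 and 0.29 ± 0.16. The count of 5 was 2 without attachment-site array 1, 1 without inter-site array 1 and 1 with slide as a fixed block, with 10 of 10 above 0 each time.

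MHC class I molecules display peptides to cytotoxic cells. The list of class I and its assembly also holds CALR, CD1D and CD1.1. Its median difference was 0.56 over 10 measured members, of which 9 were above 0. At an unadjusted p under 0.05, 2 were higher and 0 lower, beside 6.54% and 0.942% of named genes. B2M, the light chain of every class I molecule, was at 9.01, 8.89 and 8.61 against 7.81, 8.23 and 8.12, a difference of 0.78 ± 0.3 without overlap. SLA-8 differed by 0.62 ± 0.29, with its probes between 0.23 and 0.72. TAP1, which pumps peptides to the class I molecules, differed by 1.06 ± 0.5 with overlapping groups. SLA-7 was the member below 0, at -0.56 ± 0.74, and it was above 0 (0.1) without inter-site array 3. Without attachment-site array 1, without inter-site array 1 or with slide as a fixed block the count was 0, and without attachment-site array 2 it was 5.

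The list of antiviral genes that type I interferons induce, which also holds the receptor chain IFNAR1, had 18 measured members. Of these 7 were above 0 and 11 below, the median was -0.04, and 0 passed an unadjusted p of 0.05 by limma in either direction. MX1, an antiviral GTPase, was at 6.76, 4.49 and 5.18 at attachment sites and at 5.16, 6.51 and 5.64 at inter-sites. The site types were interleaved, with attachment-site array 1 and inter-site array 2 the highest. The difference was -0.29 ± 0.62, and it was 0.57 without both arrays numbered 2, a setting chosen after the data were seen. The furthest members were OASL (0.75 ± 0.46) and IRF7 (0.73 ± 0.42) above 0 and USP18 (-0.48 ± 0.41) below it. Without attachment-site array 2, 16 of 18 were above 0 and 2 were higher at an unadjusted p under 0.05. Without both arrays numbered 2, 17 of 18 were above 0, 3 were higher at that level and the median was 0.67. Without attachment-site array 1 or inter-site array 1, 4 were above 0, and without inter-site array 2, 15 were above 0 and 2 higher at that level.

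Chemokines, cytokines and their receptors beyond the IFN-γ targets had a median difference of 0.38 over 46 measured genes. Of these 35 were above 0. At an unadjusted p under 0.05, 6 were higher and 0 lower, beside 6.54% and 0.942% of named genes. CCL2, which attracts monocytes, was at 3.72, 2.11 and 2.27 against 0.44, 1.77 and 0.72, a difference of 1.72 ± 0.49. CCL8, a related chemokine, was at 0.6, -0.18 and 0.42 against -3.42, -0.87 and -0.8, a difference of 1.98 ± 0.53. The groups did not overlap for either gene, and inter-site array 1 was the lowest for both. XCL1, which attracts cross-presenting dendritic cells, differed by 1.18 ± 0.45, and CCL19, which guides dendritic and T cells, by 1.07 ± 0.41. TGFB3, a cytokine that restrains inflammation, differed by 0.84 ± 0.37.

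XCR1, the receptor for XCL1, was not on the list and was chosen after its values were seen. It was at 0.06, -0.57 and -0.92 against -3.0, -1.69 and -2.19, a difference of 1.82 ± 0.56 without overlap. The cytokines IL1B, TNF and IL10 had an unadjusted p above 0.05: IL1B differed by 0.51 ± 0.64, TNF by 0.28 ± 0.23 and IL10 by 0.75 ± 0.55. The count of 6 was 3 without attachment-site array 1 and 3 without inter-site array 1. It was 12 without attachment-site array 2 and 10 without both arrays numbered 2.

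Marker genes of immune cells that endometrium can hold were read beside these groups. Of 9 macrophage and dendritic markers 8 were above 0, with a median of 1.2. At an unadjusted p under 0.05, 3 were higher and 1 lower, beside 6.54% and 0.942% of named genes. LYZ, the antibacterial enzyme lysozyme, was at 5.11, 5.62 and 3.65 against 2.74, 2.38 and 1.38, a difference of 2.63 ± 0.75 without overlap. AIF1, a calcium-binding protein of macrophages, differed by 1.51 ± 0.69, and FCGR3A, an antibody receptor, by 1.2 ± 0.5. CD163, the haemoglobin scavenger receptor of macrophages, ran the other way, at -0.28, 0.99 and 0.22 against 2.51, 1.43 and 1.89.

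Every attachment-site value of CD163 lay below every inter-site value, and the difference was -1.63 ± 0.54. Its 4 probes ranged from -2.14 to -1.61, and the most negative had an adjusted p of 0.399 in limma. A count of 1 lower macrophage marker held without each array in turn, whereas the 3 higher macrophage markers became 1 without attachment-site array 1, 1 without inter-site array 1 and 2 without attachment-site array 3. With slide as a fixed block 0 were higher and 1 lower, and the median was 0.68. CD14, another macrophage receptor, differed by 0.1 ± 0.45, so the defining markers did not move together.

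T and NK cell markers had a median difference of 0.77 over 9 measured genes. At an unadjusted p under 0.05, 1 was higher, beside 6.54% of named genes. That gene, CD3D, a chain of the T-cell receptor complex, was at -2.64, -4.0 and -4.16 against -5.22, -4.34 and -4.7, a difference of 1.15 ± 0.49. The defining markers CD3E and CD8A differed by 0.77 ± 0.53 and 0.8 ± 0.6 with overlapping groups, CD4 by -0.22 ± 0.8 and the protease GZMB by -0.3 ± 0.32. Attachment-site array 1 was the highest for CD3D, CD3E, CD3G, CD2 and CD8A. Of 10 genes of lymphocyte cytotoxicity and T-cell signalling, 2 were higher at an unadjusted p under 0.05: CTLA4, an inhibitory receptor (2.01 ± 0.91), and SH2D1A, an adaptor (1.12 ± 0.53). At inter-sites CTLA4 was detected above background once in 3 arrays. Both counts were 0 without attachment-site array 1 and without inter-site array 1, and they were 3 and 4 without attachment-site array 2. Without inter-site array 2 they were 2 and 1, and without attachment-site array 3 they were 1 and 3 with 1 lower in each list. With slide as a fixed block both counts were 0, and the medians were 0.18 for T and NK markers and 0.37 for the cytotoxicity list. The mean log2 level of the T and NK markers per array was -0.04, -1.48 and -1.02 against -1.66, -1.37 and -1.2. The part that numbers of immune cells had in the interferon and MHC differences was not tested.

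Transcripts of the conceptus were read on the same arrays. HBE1, an embryonic globin, was at 3.74, 8.6 and 4.46 at attachment sites and at 1.27, 2.62 and -0.56 at inter-sites. The groups did not overlap, and attachment-site array 2 stood more than 4 log2 units above the other attachment-site arrays. The difference was 4.49 ± 1.54, a 22.5-fold higher signal, and 2.99 without attachment-site array 2. Its unadjusted p was above 0.05 in that setting and with slide as a fixed block. On the non-pregnant arrays HBE1 stood at -3.74, -4.0 and -1.67. PAG6, a glycoprotein of trophoblast, was at 1.78, 5.48 and 2.11 against -0.98, 2.13 and -1.82, a difference of 3.35 ± 2.09 with an unadjusted p above 0.05. Here inter-site array 2 exceeded both attachment-site arrays 1 and 3, so the groups overlapped.

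Over the 16 measured conceptus markers 8 were above 0 and 8 below, and the median was 0.06. The 2 that were higher at an unadjusted p under 0.05, HBE1 and IFNG, are also on the red blood cell list and the IFN-γ list. Of named genes 6.54% were higher at that level. The mean log2 level of the list was -0.59, 0.64 and -0.85 on the attachment-site arrays and -0.97, -0.56 and -1.22 on the inter-site arrays, so that arrays numbered 2 were the highest within each site type. CYP19A3, an aromatase, was not above background on any of the 6 arrays. AFP, a yolk sac product, was at -4.31, -0.87 and -5.68 against -6.54, -3.12 and -5.85 and was above background on 2 of 3 and 1 of 3 arrays. IFNG, HBE1 and PAG6 were all highest on attachment-site array 2, whereas CXCL9, CXCL10, GBP1 and the class II genes were not. Without both arrays numbered 2, a setting chosen after the data were seen, IFNG differed by 3.55, CXCL9 by 4.91 and CXCL10 by 4.14. The list counts at an unadjusted p under 0.05 were then 10 of 15 for IFN-γ, 11 of 13 for class II and 5 of 10 for the immunoproteasome. Over all 30091 probes 914 were higher and 458 lower at that level, beside 834 and 578 with all arrays. Without both arrays numbered 2 the antiviral list had 3 of 18 higher and 17 of 18 above 0. The share of IFNG signal that came from conceptus tissue was not tested.

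**Figure D2:**
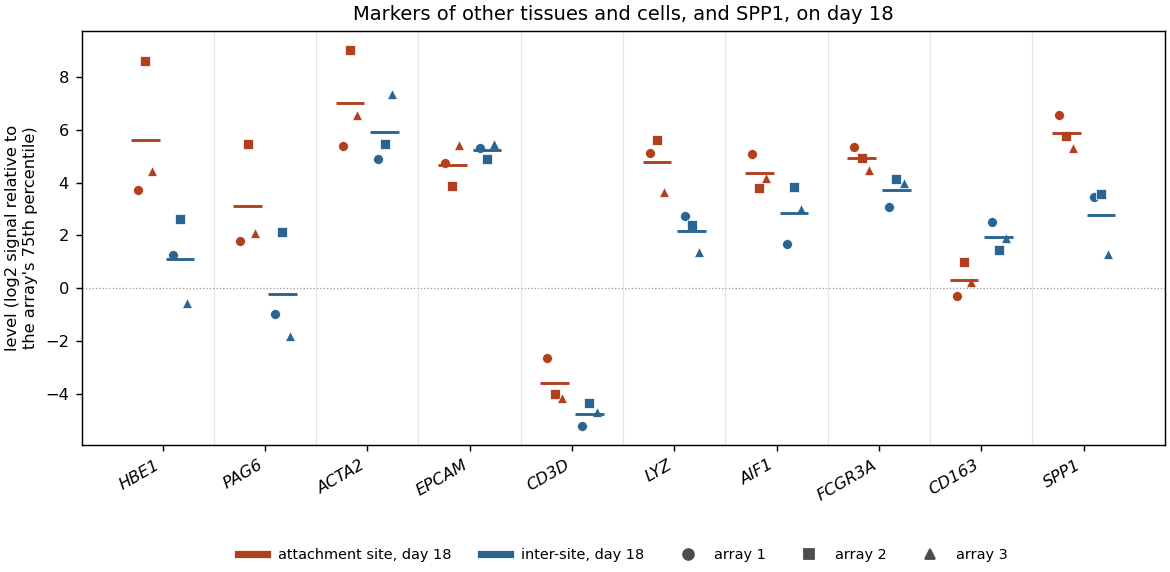
Level of markers of conceptus (HBE1, PAG6), smooth muscle (ACTA2), epithelium (EPCAM), T cells (CD3D) and macrophages (LYZ, AIF1, FCGR3A, CD163), and of SPP1, on the day 18 arrays, as log2 of signal over the array's 75th percentile; colour gives the site type, marker shape the array number, and horizontal bars the means of 3 arrays. HBE1, LYZ, FCGR3A and SPP1 were higher on every attachment-site array and CD163 was lower on every one, while ACTA2 and EPCAM overlapped.

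Markers of the main tissue layers also varied. EPCAM, CDH1, KRT8 and claudins define the epithelium, and all 8 measured epithelial markers were below 0, with a median of -0.53 and 0 at an unadjusted p under 0.05 by limma. EPCAM was at 4.76, 3.87 and 5.42 against 5.33, 4.89 and 5.45, a difference of -0.54 ± 0.28, with attachment-site array 2 the lowest. Without attachment-site array 2, 2 of 8 were above 0. Without attachment-site array 3, 3 were lower at an unadjusted p under 0.05, and without inter-site array 2, 2 were. Over all 30091 probes 2072 and 1014 were lower in these settings, beside 578 with all arrays. Smooth muscle markers had a median of 0.96, and all 6 were above 0 with overlapping groups. Their mean log2 level was 2.67, 6.53 and 4.17 against 2.63, 3.26 and 4.78, so that attachment-site array 2 was the highest and the others were interleaved. ACTA2, smooth muscle actin, was at 5.4, 9.03 and 6.58 against 4.89, 5.46 and 7.36. Without both arrays numbered 2 its difference was -0.14, and 0 of 6 muscle markers were above 0. The list's median was -0.18 without attachment-site array 2, 1.99 without attachment-site array 1 and 2.69 with slide as a fixed block, where ACTA2 differed by 2.48. The part of muscle depth in the other differences was not tested.

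Among secreted uterine proteins the clearest gap was in SPP1, osteopontin, an adhesion protein that links integrins on the epithelium and on the trophoblast. SPP1 was at 6.58, 5.78 and 5.32 against 3.47, 3.58 and 1.31. Every attachment-site value exceeded every inter-site value, and the difference was 3.11 ± 0.72, 8.62-fold (the lowest unadjusted p among the probes that each stand for a named gene; limma adjusted p = 0.944). Its 4 probes ranged from 2.99 to 3.11, and leaving out 1 array at a time gave 2.37 to 3.5.

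Of 34 measured histotroph genes 20 were above 0, and the median was 0.19. At an unadjusted p under 0.05, 5 were higher and 2 lower, beside 6.54% and 0.942% of named genes. Besides SPP1 and LYZ, the higher ones were the protease inhibitors SLPI (2.06 ± 0.95), CST3 (1.04 ± 0.48) and TIMP1 (0.81 ± 0.29). SLPI spread widely within each site type, at 9.56, 9.89 and 7.41 against 7.22, 8.64 and 4.82. The lower ones were IGFBP5, which binds insulin-like growth factors, and CLU, the chaperone clusterin, at -0.93 ± 0.38 and -1.38 ± 0.64. STC1, a calcium regulator that the pig uterus secretes, was at -2.57, -5.54 and -1.56 against 0.34, -1.55 and -0.77, below every inter-site value, but its difference of -2.56 ± 1.61 had an unadjusted p above 0.05. The abundant carriers ACP5, uteroferrin, and RBP4, which carries retinol, differed by 0.13 ± 0.87 and 0.22 ± 1.21.

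The histotroph counts were 3 and 1 without attachment-site array 1, 2 and 0 without attachment-site array 2, 2 and 0 without inter-site array 1, and 4 and 1 without inter-site array 2 or 3. SAA3, an acute-phase protein that stood outside the list, was at 4.29, 2.72 and 3.99 against -0.33, 1.88 and 2.52. Its groups did not overlap, and its difference was 2.31 ± 0.94.

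Of 12 measured genes for ions, calcium and water, 5 were above 0 and the median was -0.26. Only CFTR and AQP8 were higher at an unadjusted p under 0.05, and 0 were lower, beside 6.54% and 0.942% of named genes. CFTR, the chloride channel of secretory epithelium, was at -1.79, -2.41 and -3.42 against -5.02, -4.41 and -5.54, a difference of 2.45 ± 0.58 (limma adjusted p = 0.944). The groups did not overlap, a second probe gave 2.43, and the gene was detected above background on 3 and 2 arrays. The water channel AQP8 was at -0.39, -0.59 and -1.51 against -3.4, -2.04 and -3.13, a difference of 2.03 ± 0.84. Another water channel, AQP3, was at -3.06, -4.03 and 0.54 against -0.93, -1.08 and 1.21, a difference of -1.92 ± 1.21. Leaving out 1 array left 1 or 2 higher, and without attachment-site array 3 there were 3 lower. In that setting 2072 of all 30091 probes were lower, beside 578 with all arrays.

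Fewer named genes were lower at attachment sites. HSD11B2, the enzyme that inactivates cortisol, was at -2.04, -2.03 and -1.35 against 0.54, -0.52 and -0.57, a difference of -1.62 ± 0.55 without overlap. It was the only one of 20 measured genes of steroid receptors and steroid metabolism with an unadjusted p under 0.05, and the list's median was -0.16. Of named genes 6.54% were higher and 0.942% lower at that level. The count was 0 without inter-site array 1 and 2 without attachment-site array 2 or 3. The receptors PGR and ESR1, for progesterone and oestrogen, differed by -0.22 ± 0.36 and -0.31 ± 0.41.

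Among 21 measured genes of vessel growth and tone the median was -0.06. At an unadjusted p under 0.05, 1 was higher and 2 were lower, beside 6.54% and 0.942% of named genes. ANGPT1, which steadies vessels, was at -3.63, -3.94 and -3.57 against -2.15, -3.06 and -3.16, a difference of -0.93 ± 0.4 without overlap. The receptor partner RAMP1 differed by 0.55 ± 0.25. The median was -0.39 without attachment-site array 1 and 0.27 without attachment-site array 3, and without inter-site array 3 there were 4 lower genes and 0 higher.

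The largest negative differences without overlap included SST, the hormone somatostatin, SLC5A1, the sodium-glucose transporter, IFNE, an interferon of reproductive epithelium, and RLN2, a relaxin. SST was at -1.99, -2.86 and -2.02 against 0.81, 0.14 and 1.19, a difference of -3.0 ± 1.85 with an unadjusted p above 0.05. The within-group spread of SST on these arrays was small beside the gap, but the fit pools the spread over all 7 groups, and the difference did not reach an unadjusted p of 0.05. SLC5A1 differed by -1.63 ± 0.82, IFNE by -1.66 ± 1.03 and RLN2 by -1.45 ± 0.89. CA11, a carbonic anhydrase relative, differed by -1.47 ± 0.46, and COL5A3, a fibrillar collagen chain, by -0.98 ± 0.33. OPTC, opticin, a small leucine-rich protein of the matrix, was at -5.48, -5.05 and -7.28 against -2.5, -2.62 and -2.66, a difference of -3.35 ± 1.17. It was above background on 1 of 3 attachment-site arrays, so the size of its difference is uncertain.

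Genes of the cell cycle had a median of 0.64 over 15 measured members, with 11 above 0. At an unadjusted p under 0.05, 2 were higher, beside 6.54% of named genes. The groups did not overlap for 6 that were higher, beside 8.37% of named genes. CDK1, the mitotic kinase, was at -0.45, -0.48 and -1.4 against -2.92, -3.14 and -2.64, a difference of 2.12 ± 0.91. CDC20, which activates the anaphase ligase, differed by 2.18 ± 1.01 and was detected at inter-sites on 1 array of 3, and TOP2A, topoisomerase II, differed by 1.99 ± 1.1. The arrest factor CDKN1B was at 3.51, 3.65 and 4.5 against 4.42, 4.11 and 4.5, a difference of -0.46 ± 0.27. The count of 2 was 0 without attachment-site array 1 or 2 or inter-site array 1 or 2, 1 without attachment-site array 3, and 0 with slide as a fixed block, where the median was -0.12. Which cells divide cannot be read from bulk tissue.

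Among 23 measured growth factors and patterning genes 18 were below 0, with a median of -0.25. AREG, amphiregulin, an EGF-family ligand, was at -2.68, -4.24 and -4.13 against -5.5, -5.06 and -5.87, the 1 member that was higher at an unadjusted p under 0.05 (1.79 ± 0.84). KLF5, an epithelial factor, and MET, the hepatocyte growth factor receptor, differed by -1.34 ± 0.71 and -1.04 ± 0.58. The count of 1 higher was also 1 without attachment-site array 2. No list member was higher at that level without any other single array or with slide as a fixed block, and without inter-site array 3 there were 4 lower. THY1, a surface glycoprotein of stromal and other cells, was at -1.13, -0.61 and -2.3 against -3.69, -3.25 and -3.95, a difference of 2.28 ± 0.8. It was 1 of 3 measured stromal fibroblast markers, whose median was 0.04. The others, DCN and MMP2, differed by 0.04 and -0.51 with overlapping groups. Lists of prostaglandin synthesis (13 genes), nutrient transporters (20), adhesion molecules and mucins (20) and immediate early and heat shock genes (9) had 0 members at an unadjusted p under 0.05 by limma, with medians of 0.04, 0.12, 0.22 and 0.18. Matrix genes (19) had 1 higher and 1 lower, and complement and coagulation genes (28) had 2 and 1, beside 6.54% and 0.942% of named genes. The complement counts were 0 and 0 without inter-site array 1 and 4 and 0 without inter-site array 3.

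**Figure D3:**
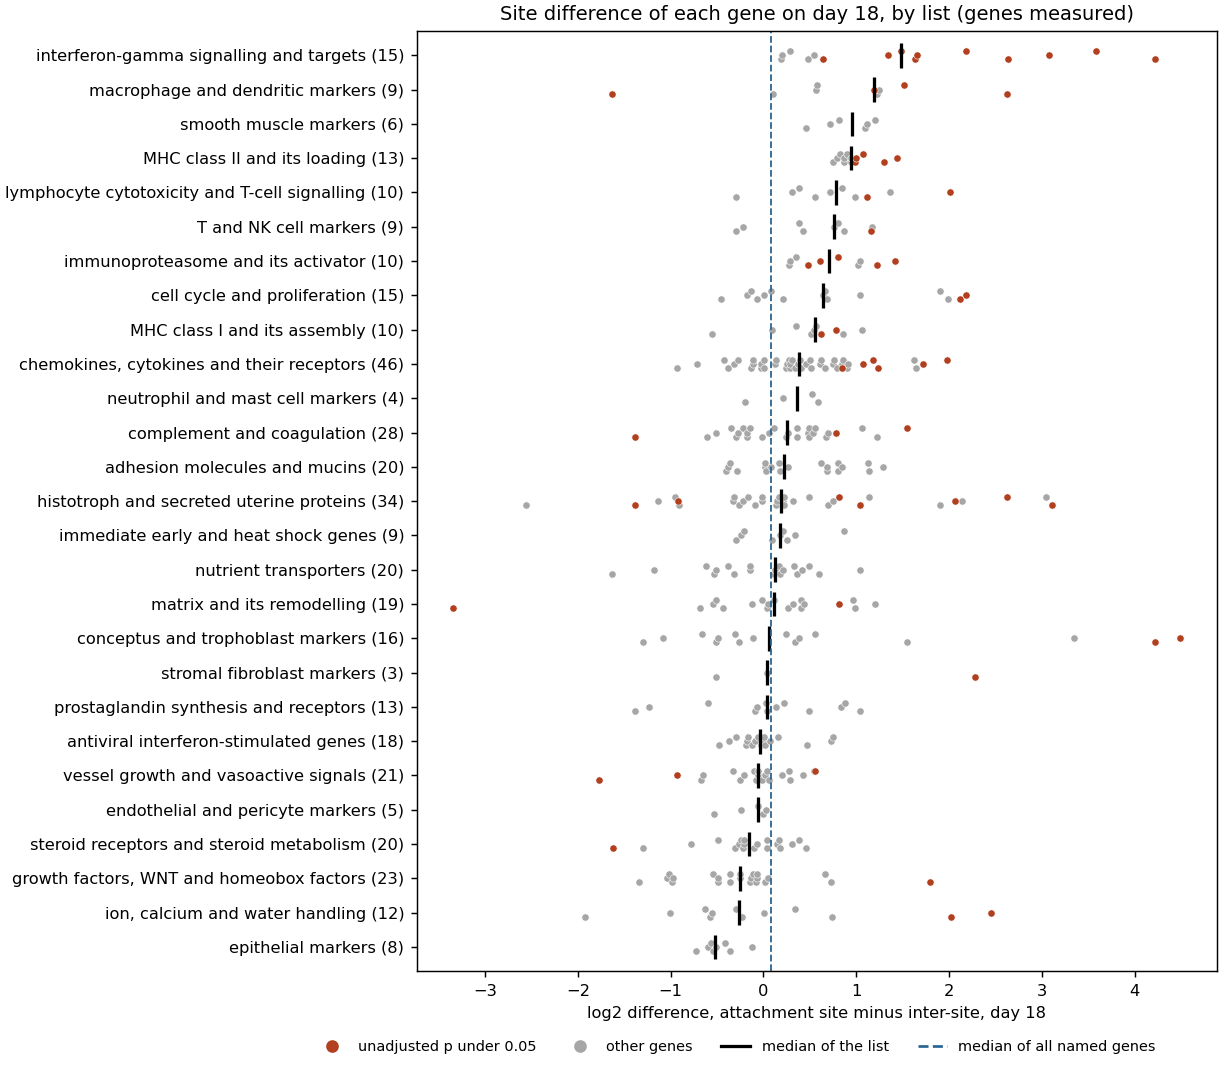
Log2 difference between attachment site and inter-site of each measured gene on day 18, with 1 row per list that has 3 or more measured genes (their number in brackets) and rows ordered by the list's median (black bar); red points have an unadjusted limma p under 0.05, none has an adjusted p under 0.05, and the dashed line is the median of 2018 named genes, 0.0803. IFN-γ signalling and targets has the highest median, 1.49, and epithelial markers the lowest, -0.53.

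The most divergent probes without a gene symbol spanned a similar range. A_72_P104806 was at 4.35, 8.92 and 4.92 against 1.68, 3.23 and -0.17, a difference of 4.48 ± 1.5, with the same array order as HBE1. A_72_P245572, designed on an Ensembl transcript, differed by 3.84 ± 1.09. On the lower side A_72_P000976 differed by -3.58 ± 1.13 and A_72_P371158 by -2.81 ± 1.73. The probe with the lowest adjusted p, A_72_P144836 (0.0697), was at -5.68, -3.24 and -3.04 against -8.01, -7.3 and -7.57, and it exceeded background at all attachment sites and at 0 inter-sites. Of named genes, AMCF-II, a neutrophil chemokine, and MYH1, a muscle myosin, showed the same pattern of detection. By the group means their signal was at least 1.86-fold and at least 1.84-fold higher. This was computed against the lowest signal well above background on each inter-site array or the probe's own value where that was higher. The limma unadjusted p was 0.133 for AMCF-II and 0.0671 for MYH1. With slide as a fixed block AMCF-II differed by 0.39 log2 units, below its bound of 0.9.

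The day 18 difference was then set against the same difference on days 13 and 24, from the same fit. Against day 13, 0 probes passed an adjusted p of 0.05 in limma and 2386 (7.93%) had an unadjusted p under 0.05. Against day 24, 3 probes passed (0.00997%) and 964 (3.2%) had an unadjusted p under 0.05. The count of 3 was 0 with slide as a fixed block, and leaving out 1 array gave 0 to 18, with 18 without day 24 inter-site array 2. For all 3 the site difference was above 4 on day 24 and below 1 on day 18. CYP19A3 differed by -0.49 ± 0.53 on day 18 and by 4.95 ± 0.53 on day 24, a change of -5.43 (limma adjusted p = 0.0233). Since its signal was not above background on the day 18 arrays, the size of this change is uncertain. For 1 IL6 probe the values were 0.45 ± 0.4 and 4.31 ± 0.4 (adjusted p = 0.0308), and for the unnamed probe A_72_P334833 they were -0.61 ± 0.47 and 4.36 ± 0.47 (adjusted p = 0.0233). On day 18 A_72_P334833 was above background on 0 attachment-site arrays and 1 inter-site array, and this IL6 probe on 2 and 2. The sizes of these changes are uncertain too. IL6, an inflammatory cytokine, was on day 24 at 0.42, -0.1 and 1.11 against -3.61, -3.63 and -4.25 by that probe.

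The median site difference of the IFN-γ list was -0.08 on day 13, 1.49 on day 18 and 0.24 on day 24. For IFNG the difference was 1.42, 4.22 and 1.21 on the 3 days, and the change from day 13 to 18 was 2.81 ± 1.52. For CXCL11 it was -0.63, 3.08 and -0.94, and day 18 exceeded day 13 by 3.71 ± 1.14 and day 24 by 4.02 ± 1.14. The class II median ran from -0.28 through 0.94 to 0.44, and 5 of 13 genes had an unadjusted p under 0.05 for a higher difference on day 18 than on day 13, beside 4.56% of named genes (3.07% were lower on day 18). Of the IFN-γ list 5 of 15 did so against day 13, and 3 of 15 against day 24, beside 1.39% of named genes (3.22% were lower). Against day 24, 0 of 13 class II genes did so. The antiviral genes stood at -0.03, -0.04 and 0.12.

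Other genes followed other courses. HSD11B2 differed by 0.74 on day 13, -1.62 on day 18 and 1.83 on day 24, so that its sign on day 18 was opposite to both other days (day 18 minus day 24: -3.45 ± 0.78, limma adjusted p = 0.521). CD163 stood at -0.63, -1.63 and 0.5. CFTR stood at -0.41, 2.45 and 0.72, and CCL2 at -0.45, 1.72 and 0.72. SPP1 and HBE1 had positive differences on day 24 as well, SPP1 at 0.24, 3.11 and 2.05 and HBE1 at 0.8, 4.49 and 7.24. None of these changes between days had an adjusted p under 0.05. Day 18 values enter both comparisons between days, so these are not independent of each other.

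**Figure D4:**
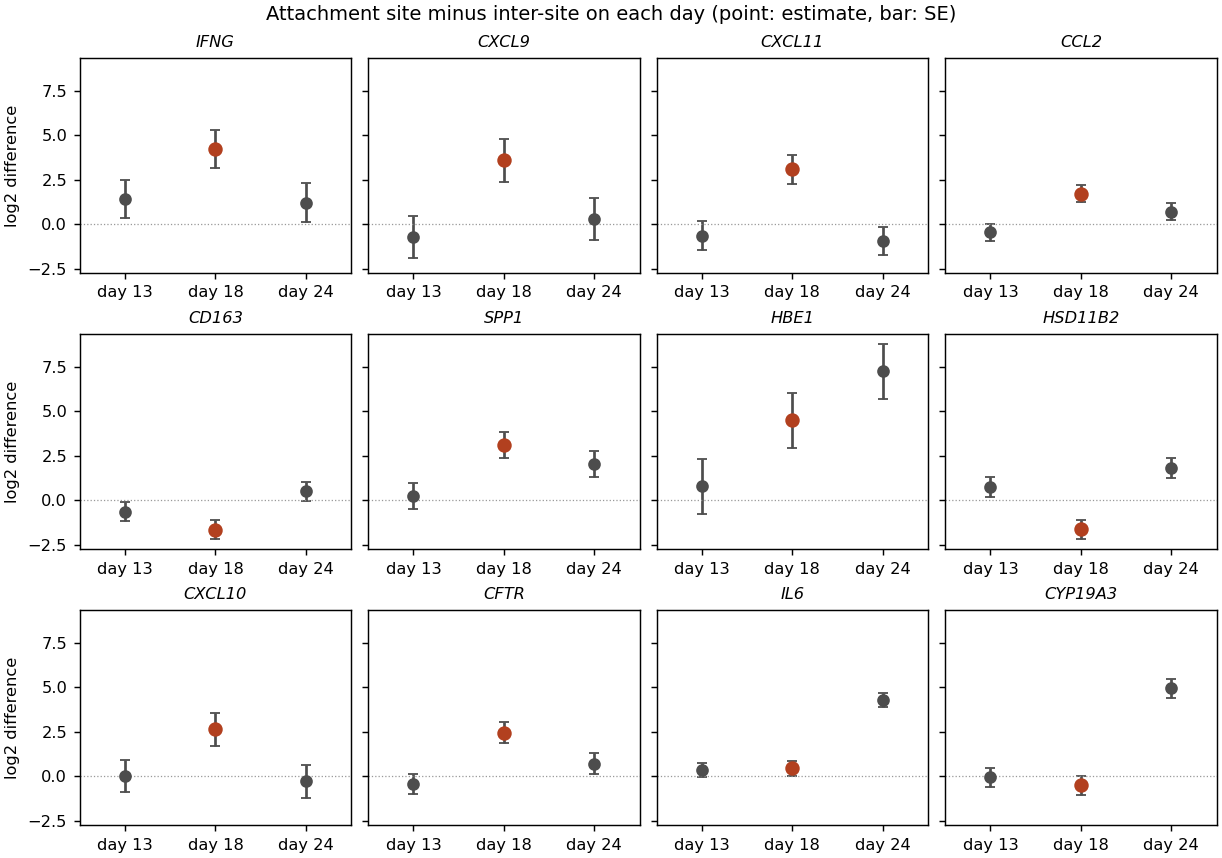
Attachment-site minus inter-site difference of 12 genes on days 13, 18 (red) and 24, in log2 units, with bars for the SE of a fit over 21 arrays (3 arrays per site type and day). IFNG, CXCL9, CXCL10, CXCL11 and CFTR have their largest difference on day 18 and HSD11B2 is negative on day 18 alone, whereas HBE1, IL6 (1 of its probes) and CYP19A3 have theirs on day 24.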

How the data were processed

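Per the file headers, the deposited files give the intensity of each spot, extracted with Agilent Feature Extraction 10.7.3.1 (10.7 per the submitters' processing notes), background-subtracted and detrended within an array. The authors' deposited value table, on the log2 scale with a median of 5.85 in every column, served as an alternative. Control spots and outlier flags were dropped and repeat spots averaged, leaving 43603 probes, none saturated. Values were log2 processed intensity minus the array's 75th percentile. A probe was tested where every array of any 1 of the 7 groups had it well above background (30091 kept, 13512 left out).

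The model, from limma 3.58.1, had 1 mean per group over 21 arrays (R 4.3.3; 14 residual and 2.71 prior degrees of freedom) with Benjamini-Hochberg adjustment at 0.05, and the script was tested on simulated data. Of 5779 probes with a RefSeq accession, 5461 matched a symbol in the Sscrofa11.1 RefSeq table, and the probe with the highest mean over all arrays stood for a gene. No source used here names the build of the files, so no positions are printed.

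The members and the 30 gene lists were chosen with earlier results of these data known. Genes were named by rule: per list, up to 6 with the largest absolute moderated t and up to 3 more of the other direction, the 15 largest differences without overlap in each direction, genes above background at 1 site type only, the 5 with the lowest p per direction between days, and markers. Other names, used to give a pathway's known members, were chosen after their values were seen. Alternatives were other scalings, background correction, filters, slide and replicate blocks and leaving out arrays. The files used hold no mean spot signal, so normexp (offset 50) was run on median signals. The number of arrays limits the precision. Some items are not reported here.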

Additional observations from a re-analysis of the deposited data

Results flagged for a closer look

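The site difference of 3 probes differed between day 18 and day 24 by a test of the difference itself (limma, Benjamini-Hochberg over 30091 probes). For CYP19A3 the day 18 difference minus the day 24 difference was -5.43 (adjusted p = 0.0233), and its signal was above background on 0 of 6 day 18 arrays, so the size of the change is uncertain. For the unnamed probe A_72_P334833 it was -4.97 (adjusted p = 0.0233), with levels from -7.45 to -5.50 on day 18. There the probe was above background on 0 attachment-site arrays and 1 inter-site array, so this size is uncertain too. For IL6, by 1 of its probes, the day 18 difference minus the day 24 difference was -3.86 (adjusted p = 0.0308). That probe was above background on 2 attachment-site and 2 inter-site arrays of day 18. The IL6 probe that stands for the gene gave -4.31 with an adjusted p of 0.312.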

How the results depend on the processing

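For day 18, the count of probes at an adjusted p under 0.05 was 0, 1 with quantile normalization, 1 with the deposited value table and 0 to 3 without 1 array, where 3 came without attachment-site array 1. A_72_P144836 was called in each of these settings, with A_72_P122321 and A_72_P377878 without attachment-site array 1. The 1412 probes at an unadjusted p under 0.05 became 530 with normexp background correction, 918 with slide as a fixed block, 941 with only the arrays compared, and 629 to 3843 without 1 array (629 without inter-site array 1, 918 without attachment-site array 2, 2202 without inter-site array 2, 3843 without attachment-site array 3). Of them 59.1% were higher at attachment sites, beside 71.7% with normexp, 71% without attachment-site array 2 and 46.1% without attachment-site array 3. Against day 13 the count was 0, and 0 to 1 without 1 array. Against day 24 the count of 3 was 0 with normexp, with the filter over all 21 arrays, with the replicate block, with slide as a fixed block and with only the arrays compared, and 0 to 18 without 1 array: 5 without attachment-site array 1 of day 18, 1 without inter-site array 1 and 0 without attachment-site array 3 or inter-site array 2 or 3 of day 18, and for day 24 7 without attachment-site array 1, 18 without inter-site array 2 and 0 without attachment-site or inter-site array 3. The cause of these shifts was not tested. Same-numbered arrays of the 2 site types deviated together at r = 0.227, 0.099 and 0.49, and attachment-site array 1 correlated better with inter-site array 2 (0.437), so the number was not taken as a pairing. With the replicate block the counts were 0, 1954 unadjusted (49.4% higher), 0 against day 13 and 0 against day 24. Of gene values, 19 turned sign. ACTA2 was -0.137 without both arrays numbered 2 (chosen after seeing the data), JAK1 -0.021 as the mean of its probes, CD4 0.05 with normexp and 0.173 without both arrays numbered 2, ACP5 -0.07 with quantile normalization and -0.077 with the deposited table, and MX1 0.05 with slide as a fixed block and 0.571 without both arrays numbered 2. Without 1 array the range was -0.004 to 0.258 for ACP5, -0.203 to 0.527 for CD14, -0.986 to 0.546 for CD4, -0.887 to 0.085 for CYP19A3, -0.937 to 0.201 for MX1 and -0.961 to 0.101 for SLA-7. The other 1727 gene values kept their direction. Of list medians, 481 moved by less than the spread between replicates and 29 by more. In the deposited table, columns of day 24 inter-site arrays 2 and 3 followed each other's scanner files.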

Other observations

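Some named genes outside the lists had low unadjusted p-values in limma and were picked after their values were seen. CD72, a B-cell inhibitory receptor, was at 0.38, -0.41 and -0.71 at attachment sites and at -2.94, -2.12 and -1.61 at inter-sites, a difference of 1.98 ± 0.53 without overlap. The 2 measured B and plasma cell markers, XBP1 and PIGR, differed by -0.26 and -0.35 with overlapping groups. ACTR3, a subunit of the actin-branching Arp2/3 complex, ADGRE5, a leukocyte adhesion receptor, and TSPO, a mitochondrial membrane protein, differed by 0.82, 0.98 and 0.65. None had an adjusted p below 0.982.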
